A study of Mus musculus with 2 samples.

Results

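The 38 genes described here encode lysosomal hydrolases and their helpers, proteins of the lysosomal membrane, subunits of the vacuolar proton pump (V-ATPase) and 3 transcription factors of the MiT/TFE family. They were chosen by gene symbol. All 38 were found among the 55536 annotated genes in the tables, of which 22015 are protein-coding genes of the nuclear genome. The data are 2 ribosomal-RNA-depleted RNA libraries from nuclei of mouse C57BL/6J bone marrow-derived macrophages. One label field calls the fraction nuclear and another nucleoplasmic.

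Both libraries belong to 1 group. The cells received Lipid A, the membrane anchor of bacterial endotoxin and an agonist of Toll-like receptor 4, at 100 ng/ml for 12 hours. They were then kept for 12 hours after washout and given Lipid A at 100 ng/ml once more for 60 minutes. Unstimulated cells, cells stimulated once and cytoplasmic RNA were not analysed here, so a response to Lipid A is not measured by any value given. The library of replicate 2 was made from 500 ng of RNA and that of replicate 1 from 1 µg. In the labels they are biological replicates with a shared donor identifier, and age and sex were not collected. Separate animals are not stated, and part of the difference between the libraries may be technical. With 1 group of 2 libraries no test between conditions was possible, and all comparisons are descriptions.

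Lysosomes are acidic organelles in which hydrolases break down proteins, lipids, glycans and nucleic acids delivered by phagocytosis, endocytosis and autophagy. The V-ATPase acidifies them: its membrane-embedded V0 sector carries protons while its cytosolic V1 sector hydrolyses ATP. Most soluble hydrolases are tagged with mannose 6-phosphate in the Golgi and carried to lysosomes by receptors, and TFEB, TFE3 and MITF can switch on many of these genes together by binding E-box-like promoter elements. Macrophages, which digest microbes and dead cells, are rich in lysosomes.

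The gene tables assigned 15687634 expected counts to genes in replicate 2 and 23630328 in replicate 1. Nuclear protein-coding genes held 18.8% of all TPM (transcript abundance, the counts divided by effective length and scaled to a fixed total) in replicate 2 and 28.1% in replicate 1. The median protein-coding gene of at least 1 TPM in both libraries was 0.47 lower on the log2 scale in replicate 2 than in replicate 1. A second quantifier put the same median 0.38 higher in replicate 2, so a raw difference in TPM between the libraries carries no direction of its own. Ratios between libraries are therefore given relative to the median gene, as replicate 2 over replicate 1. All 9 macrophage markers (among them Csf1r, Adgre1 and Lyz2) were at or above 1 TPM in both libraries, with summed levels of 3275 TPM in replicate 2 against 5498 TPM in replicate 1. None of 6 neutrophil, 6 lymphoid and 4 mast cell or basophil markers reached 1 TPM in both. Of the other lists, 1 of 5 genes each did so: Pf4 among erythroid and megakaryocyte markers, Kdr among stromal and endothelial markers, and Acp5 among osteoclast markers, while Elane, Cd3e and Calcr were at 0 in both libraries.

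All 38 lysosomal genes were detected, and most stood high among protein-coding genes. Each was at or above 1 TPM in both libraries, against 39.9% of nuclear protein-coding genes. By the second quantifier 37 of the 38 were, and Atp6v0d2 was at 0.92 TPM in replicate 2 against 0.60 TPM in replicate 1. At or above 10 TPM in both there were 34 of the 38, against 14.8% of nuclear protein-coding genes, and at or above 100 TPM in both there were 12 of the 38, against 1.37%. Their median level was 47.4 TPM in replicate 2 against 66.2 TPM in replicate 1, where protein-coding genes of at least 1 TPM had medians of 6.55 TPM in replicate 2 against 9.18 TPM in replicate 1. The median lysosomal gene stood at percentile 96.7 of all nuclear protein-coding genes and at percentile 91.8 of those at or above 1 TPM. In bulk RNA a difference in the number of cells and one in RNA per cell cannot be told apart. The 38 genes together took 1.98% of gene counts in replicate 2 against 2.61% in replicate 1, with 95% Wilson intervals of 1.97% to 1.98% for replicate 2 and of 2.60% to 2.61% for replicate 1. Those intervals cover counting error alone.

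**Figure D1:**
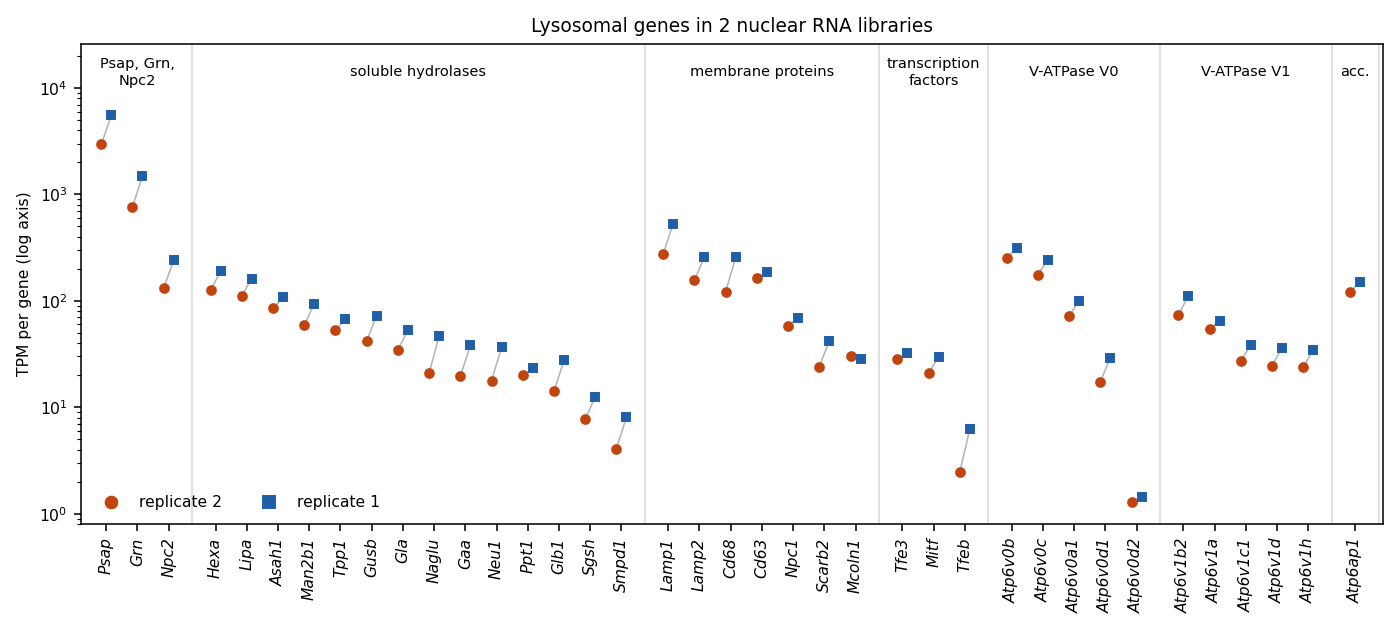
TPM of each of the 38 genes in replicate 2 (circles) and replicate 1 (squares) on a log axis, ordered by mean level within roles; acc. marks the accessory subunit. Psap lies above all others at 2953 TPM in replicate 2 against 5525 TPM in replicate 1, and Atp6v0d2 below all others at 1.29 TPM in replicate 2 against 1.45 TPM in replicate 1.

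Psap, which encodes prosaposin, the precursor of 4 saposins that help lysosomal enzymes reach sphingolipids, was the most abundant nuclear protein-coding gene per length. It was listed at 2953 TPM in replicate 2 against 5525 TPM in replicate 1, a mean of 4239 ± 1819 TPM (SD, n = 2). This SD and those below are of raw TPM and include the shift of the median gene between libraries. The second quantifier gave Psap 1567 TPM in replicate 2 against 1592 TPM in replicate 1. Psap alone took 53.8% of the expected counts of the 38 genes in replicate 2 and 56.4% in replicate 1. Grn encodes progranulin, a secreted and lysosomal protein that binds prosaposin. It followed at rank 16 of nuclear protein-coding genes, with 762 TPM in replicate 2 against 1499 TPM in replicate 1 (1130 ± 521, SD, n = 2). Npc2, the soluble carrier that takes cholesterol out of the lysosomal lumen, had 132 TPM in replicate 2 against 239 TPM in replicate 1. Relative to the median gene all 3 were lower in replicate 2, with log2 ratios of -0.43 for Psap, -0.50 for Grn and -0.38 for Npc2.

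Psap reads were divided between transcripts with different first exons. The gene lies on the plus strand of chromosome 10 (mm10 chr10:60277627-60302597). Psap-202 starts at its upstream end, at position 60277627, and Psap-203 at position 60284461. The coding bases of their first coding exons are shown because they are what separates the leading transcripts, and a 9-base exon is shown because Psap-205 alone among the gene's 5 annotated transcripts carries it (capitals, with 15 spliced bases on each side). All come from GENCODE M21 transcripts, at chr10:60277743-60277782, chr10:60284501-60284531 and chr10:60297537-60297545 (mm10, plus strand).
Psap-202: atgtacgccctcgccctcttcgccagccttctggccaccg
Psap-203: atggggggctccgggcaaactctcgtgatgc
Psap-205: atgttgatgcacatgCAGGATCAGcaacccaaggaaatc
Psap-202 took 49.6% of the gene's TPM in replicate 2 against 40.0% in replicate 1. Psap-203 took 46.6% in replicate 2 against 56.8% in replicate 1, so the leading transcript differed between libraries. The 4 transcripts that start at the upstream end summed to 53.4% in replicate 2 against 43.2% in replicate 1, and by the second quantifier to 56.9% in replicate 2 against 46.6% in replicate 1. Psap-205, with its short exon, took 1.82% in replicate 2 against 2.16% in replicate 1.

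The 14 soluble hydrolases covered a wide range. Their median was 27.6 TPM in replicate 2 against 50.2 TPM in replicate 1, and 12 of the 14 were at or above 10 TPM in both libraries. Among enzymes acting on glycolipids and glycoproteins, Hexa, the alpha subunit of beta-hexosaminidase, was highest with 125 TPM in replicate 2 against 189 TPM in replicate 1 (157 ± 45.0, SD, n = 2). Man2b1, the lysosomal alpha-mannosidase, had 59.1 TPM in replicate 2 against 93.4 TPM in replicate 1. Gla, the alpha-galactosidase that is deficient in Fabry disease, had 34.3 TPM in replicate 2 against 53.6 TPM in replicate 1. Neu1, a sialidase, was at 17.8 TPM in replicate 2 against 36.5 TPM in replicate 1, close to Glb1, the beta-galactosidase, at 14.1 TPM in replicate 2 against 27.6 TPM in replicate 1. Exons of Glb1 overlap those of Tmppe on the same strand, which was listed at 2.73 TPM in replicate 2 against 5.04 TPM in replicate 1.

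Enzymes of glycogen and glycosaminoglycan breakdown stood in the middle and lower part of the range. Gusb, the beta-glucuronidase, had 42.1 TPM in replicate 2 against 72.4 TPM in replicate 1. Naglu and Sgsh both act on heparan sulfate. Naglu had 20.8 TPM in replicate 2 against 46.8 TPM in replicate 1, whereas Sgsh had 7.71 TPM in replicate 2 against 12.5 TPM in replicate 1, so that their ranges did not overlap. Gaa, the acid alpha-glucosidase that degrades glycogen, had 19.5 TPM in replicate 2 against 38.1 TPM in replicate 1.

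Of the enzymes of lipid and protein breakdown, Lipa, the acid lipase for cholesteryl esters and triglycerides, was highest with 112 TPM in replicate 2 against 162 TPM in replicate 1 (137 ± 35.5, SD, n = 2). Asah1, the acid ceramidase, had 85.4 TPM in replicate 2 against 108 TPM in replicate 1. Smpd1, the acid sphingomyelinase that makes ceramide, was the lowest hydrolase at 4.09 TPM in replicate 2 against 8.05 TPM in replicate 1. The enzymes next to each other in sphingolipid breakdown thus stood far apart in nuclear RNA, with no overlap between libraries. Tpp1, a tripeptidyl peptidase, had 52.7 TPM in replicate 2 against 67.2 TPM in replicate 1. Ppt1, which removes palmitate from proteins, had 19.9 TPM in replicate 2 against 23.2 TPM in replicate 1. Exons of Ppt1 overlap those of Cap1 on the opposite strand, at 46.6 TPM in replicate 2 against 66.1 TPM in replicate 1, and whether the counting used strand is not stated in the sources used here. Exons of Grn, Hexa, Sgsh, Lamp1, Npc1, Atp6v0b and Atp6v1h also overlap genes on the opposite strand, each of them under 10 TPM in both libraries.

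Among the membrane proteins Lamp1, a structural glycoprotein that lines the lysosomal membrane as Lamp2 does, was highest in both libraries. Lamp1 had 277 TPM in replicate 2 against 532 TPM in replicate 1 (405 ± 180, SD, n = 2), and Lamp2 157 TPM in replicate 2 against 259 TPM in replicate 1 (208 ± 72.4, SD, n = 2). Lamp1 was above Lamp2 in both libraries, and their ranges did not overlap. Cd63, a tetraspanin of late endosomes and lysosomes, had 162 TPM in replicate 2 against 186 TPM in replicate 1, above Lamp2 in replicate 2 and below it in replicate 1. Cd68, a lamp-family protein widely used as a macrophage marker, had 122 TPM in replicate 2 against 257 TPM in replicate 1. Npc1, which receives cholesterol from the Npc2 protein, had 58.4 TPM in replicate 2 against 69.7 TPM in replicate 1. Npc2 was above it in both libraries. Scarb2, the receptor that brings glucocerebrosidase to lysosomes, had 24.1 TPM in replicate 2 against 42.2 TPM in replicate 1. Mcoln1, a calcium channel of the lysosomal membrane, was the 1 gene of the 38 with more TPM in replicate 2, at 30.3 TPM against 28.7 TPM in replicate 1.

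Lamp2 was divided between alternative last exons in nearly the same way in both libraries. The gene is known for 3 isoforms that differ in the transmembrane segment and the short cytosolic tail, 1 of which serves as the receptor of chaperone-mediated autophagy. The transcript names do not carry the isoform letters. The coding bases of the 3 last exons are shown because they are the only coding difference being measured (GENCODE M21, mm10, minus strand: chrX:38421715-38421851 for Lamp2-202, chrX:38405435-38405571 for Lamp2-201 and chrX:38402142-38402281 for Lamp2-203).
Lamp2-202: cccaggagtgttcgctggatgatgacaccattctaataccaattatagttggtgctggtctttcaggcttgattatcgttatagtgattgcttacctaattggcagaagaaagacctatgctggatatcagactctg
Lamp2-201: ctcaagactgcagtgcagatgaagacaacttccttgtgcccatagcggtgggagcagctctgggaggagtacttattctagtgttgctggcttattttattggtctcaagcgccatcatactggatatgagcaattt
Lamp2-203: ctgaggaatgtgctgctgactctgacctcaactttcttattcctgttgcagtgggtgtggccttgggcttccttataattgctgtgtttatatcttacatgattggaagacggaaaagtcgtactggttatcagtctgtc
In global alignments Lamp2-202 and Lamp2-201 shared 58.9% of positions, Lamp2-203 and Lamp2-202 64.1%, and Lamp2-203 and Lamp2-201 58.6%. Lamp2-202 took 51.3% of the gene's TPM in replicate 2 against 53.1% in replicate 1. Lamp2-201 took 32.8% in replicate 2 against 34.6% in replicate 1, and the second quantifier gave it 34.4% in replicate 2 against 37.0% in replicate 1. Lamp2-203 took 0.59% in replicate 2 against 0.82% in replicate 1.

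The 3 transcription factors that act on lysosomal genes had a median of 20.9 TPM in replicate 2 against 29.8 TPM in replicate 1, below the median of the 38 genes in both libraries. Tfe3 had 28.7 TPM in replicate 2 against 32.4 TPM in replicate 1, and Mitf 20.9 TPM in replicate 2 against 29.8 TPM in replicate 1. Tfeb, which mTORC1 holds in the cytoplasm in fed cells, had 2.48 TPM in replicate 2 against 6.27 TPM in replicate 1, from 89 expected counts in replicate 2 and 249 in replicate 1. Both Tfeb TPM values lay under their deposited interval bounds, and the posterior means were 4.99 TPM in replicate 2 and 8.30 TPM in replicate 1. Tfeb was below Tfe3 and Mitf in both libraries. Tfec, the remaining gene of the family and not among the 38, was listed at 142 TPM in replicate 2 against 77.1 TPM in replicate 1, above Tfe3, Mitf and Tfeb in both libraries. After TMM normalisation, which scales counts by a trimmed mean of ratios, the log2 ratio of Tfec was 1.13, beside 0.20 for Tfe3, -0.12 for Mitf and -0.87 for Tfeb. Of Mitf, 92.9% of TPM in replicate 2 against 96.4% in replicate 1 lay on the 3 transcripts that begin at the most upstream first exon.

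The V-ATPase genes covered both sectors of the pump. In V0, Atp6v0b and Atp6v0c encode proteolipids of the proton-carrying ring. Atp6v0b had 252 TPM in replicate 2 against 313 TPM in replicate 1 (283 ± 43.0, SD, n = 2), and Atp6v0c 176 TPM in replicate 2 against 242 TPM in replicate 1 (209 ± 46.5, SD, n = 2). Atp6v0a1, a form of the large a subunit next to the ring, had 72.4 TPM in replicate 2 against 99.8 TPM in replicate 1. Of the d subunits that link the sectors, Atp6v0d1 had 17.5 TPM in replicate 2 against 29.2 TPM in replicate 1. Atp6v0d2, the form known from osteoclasts, was the lowest of the 38 genes at 1.29 TPM in replicate 2 against 1.45 TPM in replicate 1, from 71 expected counts in replicate 2 and 89 in replicate 1. Atp6v0d1 exceeded it in both libraries. The osteoclast markers Calcr, Ocstamp and Dcstamp were at or under 0.03 TPM in both, although the second quantifier put Ocstamp at a mean of 1.84 TPM. The remaining osteoclast markers were higher. Acp5 had 4.88 TPM in replicate 2 against 7.82 TPM in replicate 1, above Atp6v0d2, and Ctsk 0.16 TPM in replicate 2 against 0.90 TPM in replicate 1.

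In V1, the catalytic A subunit gene Atp6v1a had 54.0 TPM in replicate 2 against 65.3 TPM in replicate 1. Atp6v1b2, the B subunit that completes the ATP-binding head, had 74.0 TPM in replicate 2 against 111 TPM in replicate 1. The stalk and regulatory subunits were lower. Atp6v1c1 had 27.3 TPM in replicate 2 against 38.5 TPM in replicate 1, Atp6v1d of the central rotor 24.6 TPM in replicate 2 against 36.1 TPM in replicate 1, and Atp6v1h 23.9 TPM in replicate 2 against 34.6 TPM in replicate 1. The ranges of these last 3 overlapped. Atp6ap1, an accessory subunit needed for assembly, had 122 TPM in replicate 2 against 150 TPM in replicate 1. The 11 V-ATPase genes had a median of 54.0 TPM in replicate 2 against 65.3 TPM in replicate 1, and the 14 soluble hydrolases one of 27.6 TPM in replicate 2 against 50.2 TPM in replicate 1. The difference of median log2 levels, V-ATPase minus hydrolases, was 1.01 in replicate 2 and 0.38 in replicate 1 (0.70 ± 0.44, SD, n = 2). It had the same sign in both libraries, and its size differed between them by more than the smaller value.

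Where a V-ATPase subunit has paralogues, 1 form held most of the TPM. Among a subunits, Tcirg1, the a3 form, had 295 TPM in replicate 2 against 448 TPM in replicate 1, Atp6v0a1 followed, and Atp6v0a2 had 5.72 TPM in replicate 2 against 11.6 TPM in replicate 1. Atp6v0a4, the form known from kidney, had 0 counts in both libraries, and 3 counts would be worth 0.11 TPM in replicate 2 or 0.09 TPM in replicate 1. Atp6v1b1, also known from kidney, had 1 expected count in replicate 2 and 0 in replicate 1, and Atp6v1c2 had 0 in both. Among other V-ATPase genes, 8 of 14 were at or above 1 TPM in both libraries, 6 at or above 10 TPM and 1, Tcirg1, at or above 100 TPM. The second of them was Atp6ap2 with 61.6 TPM in replicate 2 against 95.8 TPM in replicate 1.

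**Figure D2:**
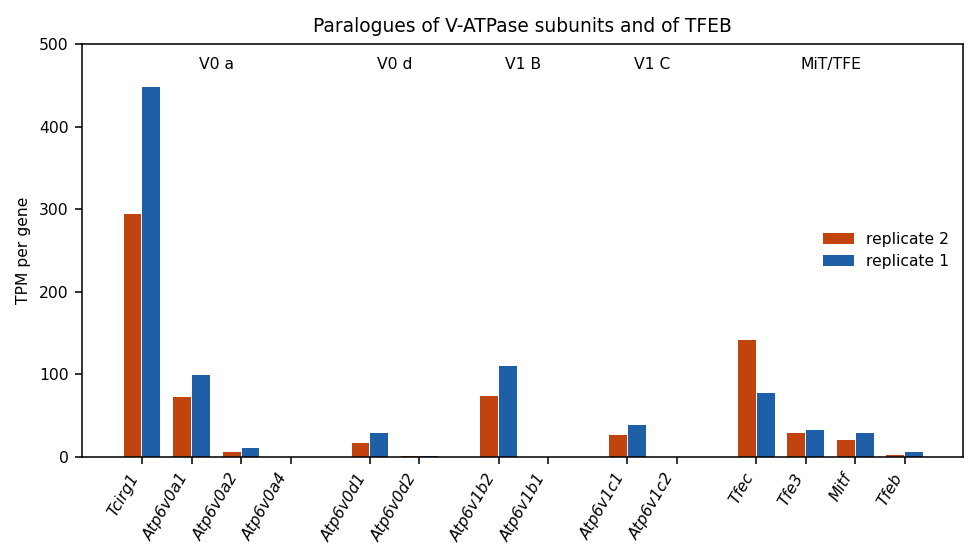
TPM per gene in replicate 2 (left bars) and replicate 1 (right bars) for paralogues of V-ATPase subunits and for the MiT/TFE family. Tcirg1 is above Atp6v0a1 among a subunits, Atp6v0d1 above Atp6v0d2, and Tfec above Tfe3, Mitf and Tfeb in both libraries; Atp6v0a4, Atp6v1b1 and Atp6v1c2 have bars at or near 0.

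Other genes of the pathway were described by list. All 19 other hydrolases and activators were at or above 1 TPM in both libraries, 11 at or above 10 TPM and 3 at or above 100 TPM. Among those at or above 100 TPM was Ctsa, the protective protein of Neu1 and Glb1, with 162 TPM in replicate 2 against 311 TPM in replicate 1. Ctsa stood above both of its partners. Of 20 other membrane proteins, 17 were at or above 1 TPM, 9 at or above 10 TPM and 2 at or above 100 TPM. These 2 were Laptm5, at 188 TPM in replicate 2 against 270 TPM in replicate 1, and the chloride-proton exchanger Clcn7, at 122 TPM in replicate 2 against 173 TPM in replicate 1. Lamp3 and Lamp5, known from dendritic cells and neurons, had 0 counts in both libraries. Among 17 regulators of mTORC1 and TFEB at the lysosome, 16 were at or above 1 TPM, 9 at or above 10 TPM and none at or above 100 TPM in both. The highest of these by mean was Fnip2, a partner of folliculin, at 76.7 TPM in replicate 2 against 150 TPM in replicate 1. All 6 genes of mannose 6-phosphate sorting were at or above 1 TPM. The cation-dependent receptor M6pr had 83.9 TPM in replicate 2 against 114 TPM in replicate 1, above the larger receptor Igf2r at 17.9 TPM in replicate 2 against 27.6 TPM in replicate 1.

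The 2 libraries ordered the 38 genes alike and differed from each other by modest factors. Spearman's rho of TPM between replicate 2 and replicate 1 was 0.961 over the 38 genes, which share each library's depth and scaling. After TMM normalisation of expected counts 0 of the 38 were more than 2-fold apart, where 8.6% of 14052 genes averaging at least 10 counts were. That background was not matched for level, since the lowest of the 38 had 71 counts in replicate 2 and 89 in replicate 1. On raw TPM there were 4 (Neu1, Naglu, Cd68 and Tfeb), all lower in replicate 2, and 37 of the 38 were lower in replicate 2 by the first quantifier but 10 of the 38 by the second. Relative to the median gene, 25 of the 38 were lower in replicate 2, and the median relative log2 ratio was -0.11. Of protein-coding genes of at least 1 TPM, 50.0% were lower by construction, since their own median was subtracted. Those genes were not matched for level either. By role the medians were -0.21 for hydrolases, with 11 of 14 lower in replicate 2, and -0.25 for membrane proteins, with 4 of 7 lower. For V0 genes the median was 0.02, with 1 of 5 lower, and for V1 genes -0.06, with 4 of 5 lower. The V0 and V1 counts rested on genes near 0 and depended on the measure. After TMM normalisation Atp6v0c was at -0.05, Atp6v1c1 at 0.18 and Atp6v1h at 0.16. By the second quantifier Atp6v0c was at -0.13, Atp6v1c1 at 0.09 and Atp6v1h at 0.09. The remaining V0 and V1 genes kept their signs. The lowest relative ratios belonged to Tfeb at -0.87, Naglu at -0.69 and Cd68 at -0.60, and the highest to Mcoln1 at 0.55, Atp6v0d2 at 0.30 and Tfe3 at 0.30. Macrophage markers had a median of -0.37 on the same scale, with 7 of 9 lower in replicate 2. Their part in the lower lysosomal values of replicate 2 was not tested, nor was that of the smaller RNA input. With both quantifiers 33 of the 38 ratios had the same sign after centring. By posterior means Tfeb did not have the lowest ratio. It had 4.99 TPM in replicate 2 against 8.30 TPM in replicate 1, beside 20.9 TPM in replicate 2 against 45.2 TPM in replicate 1 for Naglu.

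**Figure D3:**
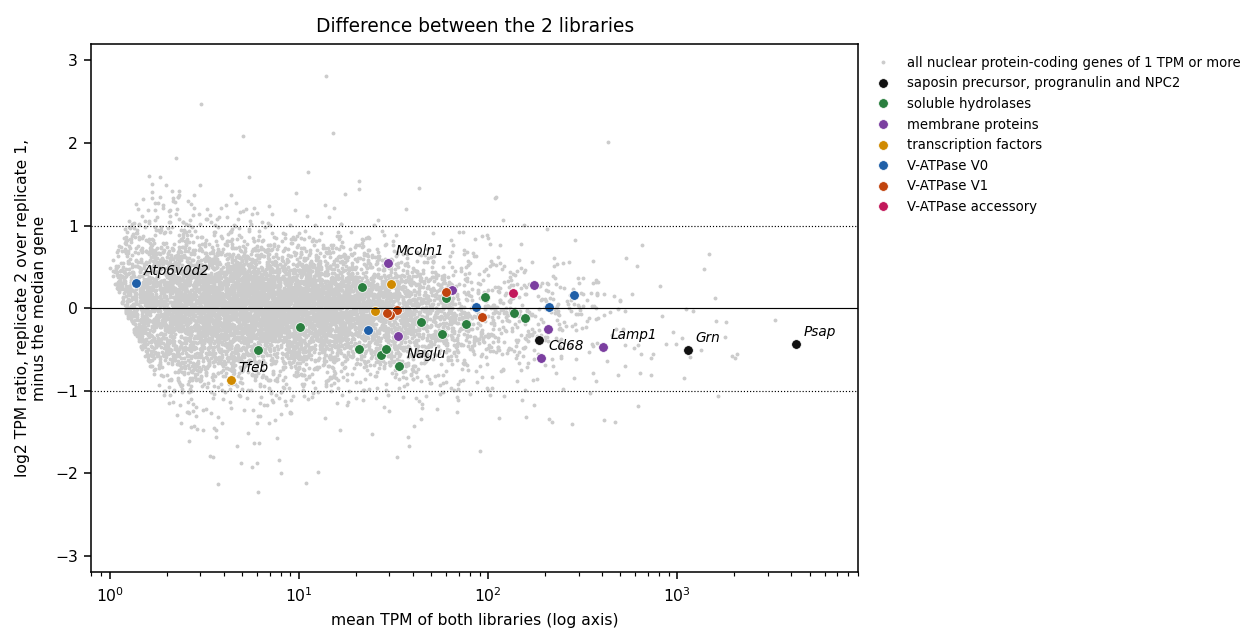
Log2 TPM ratio of replicate 2 over replicate 1, minus that of the median gene, against mean TPM on a log axis; grey points are protein-coding genes of at least 1 TPM in both libraries, coloured points the 38 lysosomal genes by role, and dotted lines mark 2-fold. All 38 lie between the dotted lines, with Tfeb lowest at -0.87 and Mcoln1 highest at 0.55.

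Many of these genes had part of their nuclear RNA assigned to transcripts that GENCODE classes as retained-intron, meaning that they hold sequence which other transcripts of the gene splice out. Of the 38 genes, 26 have such a transcript. Among these 26 the median share of the gene's TPM on that class was 21.4% in replicate 2 against 11.3% in replicate 1. Protein-coding genes of at least 1 TPM with such a transcript had medians of 23.1% in replicate 2 against 20.2% in replicate 1. By the second quantifier the 26 had 31.7% in replicate 2, above the 29.5% of that background, and 21.8% in replicate 1, below its 26.4%. By expected counts they had 11.6% in replicate 2 and 8.66% in replicate 1, beside 12.7% and 10.6% for the background. The direction against the background in replicate 2 thus depended on the quantifier. A share of at least 20% in both libraries was seen for 12 of the 38 genes, against 29.0% of protein-coding genes of at least 1 TPM, so this count was near the background. Over all 38 genes the median share was 4.84% in replicate 2 and 3.80% in replicate 1. Protein-coding genes of at least 1 TPM had higher medians, 8.52% in replicate 2 and 7.93% in replicate 1. At the low end, 7 of the 26 were under 5% in both libraries, among them Lamp1, Cd63, Scarb2 and Lipa.

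The V-ATPase genes included the highest of these shares. Atp6v1d had 70.2% of TPM on retained-intron transcripts in replicate 2 and 66.7% in replicate 1. By TPM of the first quantifier it alone of the 38 was led by such a transcript, Atp6v1d-202, in both libraries. Among genes with several transcripts 5.14% were. By the second quantifier Mitf and Tfe3 were also led by such transcripts in both libraries. The coding Atp6v1d-201 led its gene by expected counts, with 70.0% in replicate 2 against 71.0% in replicate 1. By expected counts, which are not divided by length, the Atp6v1d share was 29.4% in replicate 2 against 28.0% in replicate 1, since Atp6v1d-202 has 775 bases and the spliced Atp6v1d-201 has 3667. Atp6v1h had 62.4% in replicate 2 against 44.4% in replicate 1, and Atp6v0b 51.6% in replicate 2 against 35.2% in replicate 1. By expected counts Atp6v1h had 77.5% in replicate 2 against 60.7% in replicate 1, and Atp6v0b 42.5% against 27.7%. By the second quantifier Atp6v1h had 49.1% in replicate 2 against 40.0% in replicate 1, and Atp6v0b 44.7% against 33.4%. On that measure Neu1, Npc2, Tfe3 and others were above Atp6v0b in both libraries. Atp6v0a1, Atp6v0c and Atp6v0d2 have no annotated transcript of the class. Among other genes the share was 53.5% in replicate 2 against 31.8% in replicate 1 for Npc1, 44.8% in replicate 2 against 34.1% in replicate 1 for Neu1, and 41.4% in replicate 2 against 36.9% in replicate 1 for Npc2. The Npc1 share was 33.4% in replicate 2 against 17.3% in replicate 1 by expected counts, and 37.0% in replicate 2 against 20.3% in replicate 1 by the second quantifier. Mcoln1 had 36.5% in replicate 2 against 37.9% in replicate 1, and Tfe3 38.2% in replicate 2 against 46.0% in replicate 1. Exons of Npc1 overlap those of Rmc1 on the opposite strand, at 9.48 TPM in replicate 2 against 9.06 TPM in replicate 1.

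**Figure D4:**
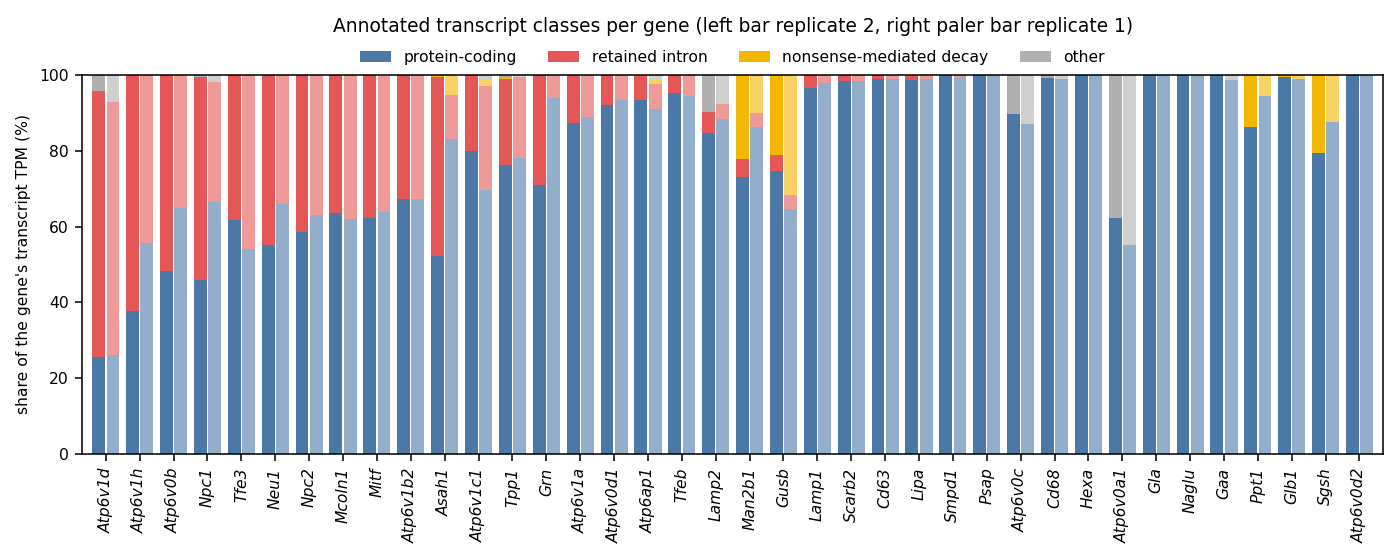
Share of each gene's TPM on protein-coding, retained-intron, nonsense-mediated decay and other annotated transcripts, with replicate 2 as the left bar and replicate 1 as the paler right bar, ordered by mean retained-intron share. Atp6v1d, Atp6v1h and Atp6v0b are at the high end; Psap, Hexa, Gla and Naglu have no retained-intron part.

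Retained-intron shares were more often higher in replicate 2 than in replicate 1. This held for 19 of the 26 genes by TPM, 21 by expected counts and 20 by the second quantifier. Among all protein-coding genes of at least 1 TPM with such a transcript, 59.8% were higher in replicate 2 by TPM, 62.2% by expected counts and 63.0% by the second quantifier. A majority of both the lysosomal genes and the background thus lay higher in replicate 2. The intronic bases that set such transcripts apart are shown for Grn-208, Atp6v0b-204 and Atp6v1d-202, which take large or differing shares, with the GT at an intron's 5′ end or the AG at its 3′ end in capitals. They come from GENCODE M21 transcripts at chr11:102434510-102434593 (plus strand), chr4:117885874-117885894 (minus strand) and chr12:78845305-78845391 (minus strand) in mm10.
Grn-208: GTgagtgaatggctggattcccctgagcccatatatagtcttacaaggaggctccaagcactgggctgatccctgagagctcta
Atp6v0b-204: atttaccatcactgttgccAG
Atp6v1d-202: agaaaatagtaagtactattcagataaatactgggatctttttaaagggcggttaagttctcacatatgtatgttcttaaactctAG
Grn-208 holds the first 84 of the 193 bases of its intron, Atp6v0b-204 the last 21 of 194 and Atp6v1d-202 the last 87 of 2462. None of these 3 transcripts spans the whole of that intron.

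Grn-208 took 21.9% of Grn TPM in replicate 2 against 1.48% in replicate 1. By expected counts it took 3.21% in replicate 2 against 0.20% in replicate 1, because it has 444 bases and the leading Grn-201 has 2340. Grn-203 went the other way, with 1.20% of expected counts in replicate 2 against 6.98% in replicate 1. The second quantifier gave Grn-208 20.6% in replicate 2 against 5.82% in replicate 1. Atp6v0b-204 took 46.4% in replicate 2 against 27.9% in replicate 1, and it led the gene in replicate 2 whereas the spliced Atp6v0b-201 led in replicate 1. Asah1-203, a retained-intron transcript, took 46.7% in replicate 2 against 10.8% in replicate 1 by the first quantifier, but 45.4% in replicate 2 against 29.5% in replicate 1 by the second.

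Over the 37 genes with several transcripts, the leading transcript was the same in both libraries for 33, against 81.0% of protein-coding genes of at least 1 TPM. The 4 others were Psap, Gaa, Npc1 and Atp6v0b. Both quantifiers named the same leader in both libraries for 26 of 37, against 56.5%. A transcript share moved by more than 20 points between libraries in 4 of the 37, against 24.5% of genes by the first quantifier, and in 1 of the 37, against 17.0%, by the second. The 4 were Asah1, Npc1, Grn and Tfeb, and Tfeb rested on the few counts given above.

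**Figure D5:**
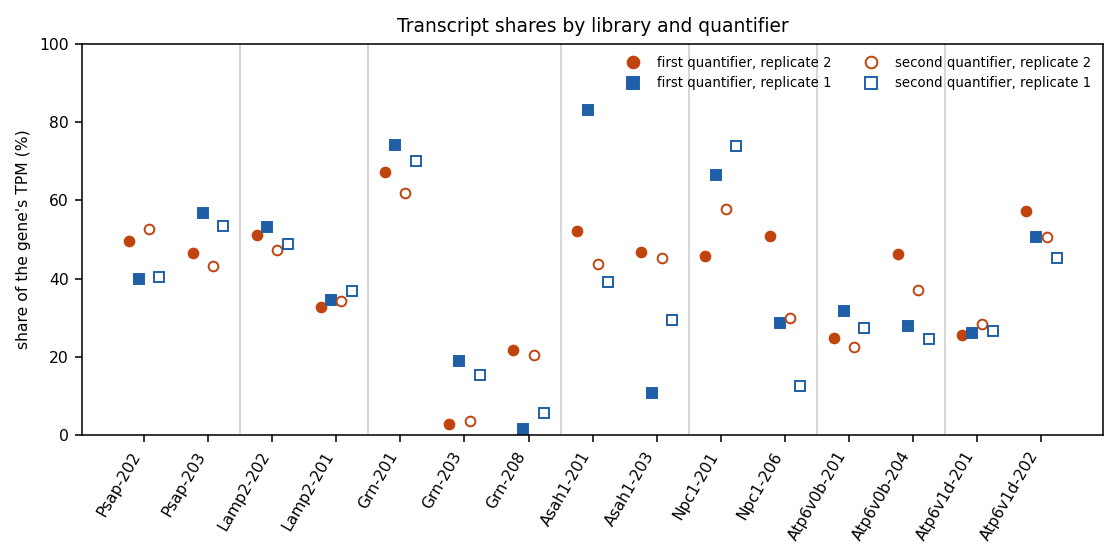
Shares of a gene's TPM on selected transcripts in replicate 2 (circles) and replicate 1 (squares), by the first quantifier (filled) and the second (open). Lamp2 shares lie close together in all 4 values, whereas Asah1-203 ranges between 10.8% and 46.7% and Grn-208 between 1.48% and 21.9%.

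Transcripts classed as targets of nonsense-mediated decay, which carry an early stop codon, made up a visible part of a few hydrolases. Gusb-206 took 21.2% of Gusb TPM in replicate 2 against 31.6% in replicate 1. The class took 22.1% of Man2b1 TPM in replicate 2 against 10.1% in replicate 1, and 20.6% of Sgsh TPM in replicate 2 against 12.4% in replicate 1. By expected counts the class took 4.39% of Man2b1 in replicate 2 against 1.84% in replicate 1, since Man2b1-203, its main transcript there, has 793 bases and the coding Man2b1-201 has 3822. The same count-based share was 19.9% in replicate 2 against 12.0% in replicate 1 for Sgsh, and 19.3% in replicate 2 against 29.1% in replicate 1 for Gusb. By the second quantifier it was 34.2% of Man2b1 TPM in replicate 2 against 22.4% in replicate 1, and 16.2% of Sgsh TPM in replicate 2 against 6.04% in replicate 1. For Ppt1 the class took 13.8% of TPM in replicate 2 against 5.47% in replicate 1, and 15.2% against 6.02% by expected counts. The second quantifier gave Ppt1 25.8% in replicate 2 against 15.8% in replicate 1. Asah1 had 0.55% of TPM in replicate 2 against 5.32% in replicate 1, but 8.89% against 30.3% by the second quantifier. By all 3 measures the shares of Man2b1, Sgsh and Ppt1 were higher in replicate 2 and that of Gusb was lower. No share of this class over all genes is given here.

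Promoters were searched for the E-box CACGTG and for longer forms that TFEB and its relatives are known to bind in lysosomal genes (the CLEAR element). RefSeq promoters (GRCm38.p6, 250 bases before to 50 after the RefSeq gene start) were given for 32 of the 38 genes. The RefSeq start can differ from the GENCODE M21 start of the same gene. Both strands were read, and every longer form contains that core. It was present in 10 of the 32 promoters, against 8.09% of all 27025 promoters. In each of those 10 at least 1 core had a T before it or an A after it (TCACGTG on either strand), a form held by 4.29% of all promoters. TCACGTGA was present in 4 of the 32, Atp6v0d1, Atp6v1a, Gla and Mcoln1, against 1.12% of all promoters, and the same letters with a G before and a C after them in 0 of the 32, against 0.37%. Among 16522 promoters of nuclear protein-coding genes the shares were 9.18% for CACGTG, 5.15% for TCACGTG, 1.45% for TCACGTGA and 0.49% for the longest form. A match is a description of these letters, not evidence that a factor binds there. The stretches that hold them are shown with TCACGTG or its reverse complement CACGTGA in capitals, each read along the gene's own strand.
Lamp1: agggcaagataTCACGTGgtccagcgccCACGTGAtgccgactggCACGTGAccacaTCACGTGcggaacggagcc
Mcoln1: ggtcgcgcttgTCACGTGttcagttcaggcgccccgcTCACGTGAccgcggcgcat
Gla: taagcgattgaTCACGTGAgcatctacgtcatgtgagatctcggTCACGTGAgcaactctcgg
Glb1: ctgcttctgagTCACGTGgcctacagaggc
Gaa: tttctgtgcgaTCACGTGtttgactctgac
Naglu: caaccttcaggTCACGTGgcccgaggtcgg
Sgsh: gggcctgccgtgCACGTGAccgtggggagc
Atp6v0b: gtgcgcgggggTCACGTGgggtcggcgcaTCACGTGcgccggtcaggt
Atp6v0d1: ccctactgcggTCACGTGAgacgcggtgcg
Atp6v1a: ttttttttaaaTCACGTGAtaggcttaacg
The stretches lie at chr8:13159088-13159163 (plus) for Lamp1, chr8:3500436-3500491 (plus) for Mcoln1, chrX:134601182-134601244 (minus) for Gla, chr9:114401018-114401047 (plus) for Glb1, chr11:119267811-119267840 (plus) for Gaa, chr11:101070009-101070038 (plus) for Naglu, chr11:119355522-119355551 (minus) for Sgsh, chr4:117887330-117887377 (minus) for Atp6v0b, chr8:105566050-105566079 (minus) for Atp6v0d1 and chr16:44139373-44139402 (minus) for Atp6v1a.

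Lamp1 stood out by number, with 4 cores between 61 and 15 bases before its RefSeq start, and Mcoln1, Gla and Atp6v0b had 2 each. The single core of Atp6v0d1 began 3 bases before its RefSeq start and that of Gaa 140 bases before. The matches of Atp6v1a and Naglu and the TCACGTGA of Mcoln1 lie inside the genes as GENCODE M21 annotates them. The match of Sgsh crosses its GENCODE M21 start. The 10 genes with a core had a median of 25.5 TPM in replicate 2 against 42.4 TPM in replicate 1, and the 22 without one a median of 65.8 TPM in replicate 2 against 96.6 TPM in replicate 1. Psap and Grn, the most abundant of the 38 genes, had no core in the window searched.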

How the data were processed

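Per the file headers, the authors deposited gene and transcript tables of RSEM form with expected counts, TPM, posterior mean TPM and interval bounds, and a second transcript table of kallisto form (the second quantifier) with estimated counts and TPM. The deposited values refer to mm10 and GENCODE M21. The authors' aligner, tool versions and strand setting: not given in the sources used here. The deposited expected counts share reads out among transcripts, can be fractional, and were rounded for normalisation; near-identical copies and overlapping genes can exchange them. The deposited TPM divides by effective length, so short RNAs receive large values. Rows that are not genes held 0.215% of counts in replicate 2 and 1.19% in replicate 1 and were left out.

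Values were read with Python 3.11.15, and TMM factors (edgeR 4.0.16) and size factors (DESeq2 1.42.0) were computed in R 4.3.3. The TMM step alone was checked on simulated counts, whose spread between libraries was set smaller than that of the data. Groups came from the labels. Log2 differences of levels used a pseudocount of 0.1 TPM. Transcript shares are shares of a gene's summed transcript TPM, and classes are GENCODE biotypes. All 38 genes are named. From other lists the 2 highest genes and up to 3 under 0.1 TPM were eligible, with V-ATPase paralogues added. Some of these genes are not reported here. The genes and lists were chosen with earlier results of these data known. Alternatives covered the second quantifier, posterior means, rescaling over nuclear protein-coding genes, other pseudocounts, filters and normalisations, leaving out a replicate, and other motifs.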

Additional observations from a re-analysis of the deposited data

Results flagged for a closer look

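Processed pseudogene copies of 2 V-ATPase or membrane genes had counts above the 3 that 0 allows, outside the genes compared above. Atp6v0c-ps2 had 13.8 expected counts in replicate 2 and 28.8 in replicate 1. Cd63-ps had 15.1 expected counts in replicate 2 and 32.0 in replicate 1. The second quantifier gave Atp6v0c-ps2 1.54 counts in replicate 2 and 1.92 in replicate 1, and Cd63-ps 3.59 counts in replicate 2 and 3.42 in replicate 1. Such copies resemble the spliced RNA of Atp6v0c and Cd63, so counts may pass between them and their parent genes; how many did was not tested.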

How the results depend on the processing

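No paired analysis was possible because both libraries belong to 1 group. With the second quantifier 4 of the 38 genes were at or above 100 TPM in both libraries, the median level was 24.3 TPM and the median percentile 95.7. After TPM was scaled to nuclear protein-coding genes alone, 30 genes were at or above 100 TPM and the median was 250.0 TPM. Levels in TPM therefore hold within 1 quantifier and scaling. Against genes of at least 1 TPM alone the median percentile was 91.8. On raw TPM 4 genes were over 2-fold apart between libraries. By expected counts the median retained-intron share over all 38 genes was 2.12%, and 4.40% by TPM. The longest motif, with a G before and a C after TCACGTGA, was in 0 promoters, CACGTG in 10, and TCACGTG, chosen after seeing the data, in 10. Leaving out a replicate gave 34 to 35 genes at or above 10 TPM, 12 to 14 at or above 100 TPM, a median of 47.4 to 66.2 TPM, a median percentile of 96.6 to 96.8, a V-ATPase minus hydrolase difference of 0.38 to 1.01, where replicate 2 alone gave the larger value, and a retained-intron share of 3.80% to 4.84%. The median log2 ratio of the 38 genes between libraries, relative to the median gene, was -0.20 by posterior means, beside -0.11. With 2 libraries, SDs are imprecise.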
